A study of Aspergillus niger with 6 samples.

Results

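The genes described here are 233 genes of the fungus Aspergillus niger with lower transcript levels on willow than on glucose. Their levels were back near the glucose level after glucose was added. They were chosen by the measured values themselves, from 14114 genes with an identifier beginning with An (1.65% of these). A chosen gene had at least 20 CPM in each of the 4 libraries from cultures with glucose, and its lowest value there was at least 2 times the higher of the 2 willow values. Its mean after glucose addition also had to lie within 2-fold of its mean on glucose at 48 h. CPM, a gene's read count scaled to a library size adjusted with TMM factors, compares samples for one gene but not genes of different length. Because all 3 comparisons between conditions went into the choice, the levels and calls of these genes are a description and no test of them is drawn on.

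The study asked how the fungus adjusts its transcripts to a lignocellulosic biofuel substrate, and profiled RNA from mycelia of strain N402 in shake flasks at 28 °C. In the condition willow 24 h + glucose 5 h, mycelium raised on 1% glucose for 48 h was washed, given 1% ball-milled willow for 24 h, and then had glucose for 5 h; the amount of glucose added is not given in the labels. In the condition willow 24 h, the same steps ended after the willow stage. In the condition glucose 48 h, mycelium was taken from the glucose culture. All 3 conditions therefore share the strain and the first 48 h on glucose, and each had 2 cultures, A and B, which the design text calls duplicates. Carbon source, washing with transfer and culture age differ together between glucose 48 h and the other conditions and cannot be told apart, and no culture was kept on willow for the additional 5 h. Bulk RNA was measured, so fewer cells of a kind and less RNA per cell cannot be told apart either.

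Filamentous fungi that live on plant matter carry genes for many carbon sources and express most of them only when that source is present. In Aspergillus, glucose and maltose-like sugars allow expression of starch-degrading enzymes through the activator AmyR, while the repressor CreA holds back genes for plant wall degradation as long as glucose lasts. Growth on glucose also draws on glycolysis, on the reactions that refill the citric acid cycle, and on the assimilation of a nitrogen source such as nitrate.

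The depth in genes was 775667 reads (A) and 437314 reads (B) in willow 24 h + glucose 5 h, 557114 and 434508 in willow 24 h, and 635522 and 758523 in glucose 48 h. The minimum of 20 CPM corresponded to 7.65 reads in willow library B and 16.4 reads in glucose 48 h library B, the extremes of the 6 libraries. TMM factors were 1.03 and 1.01 after glucose addition, 0.896 and 0.881 on willow, and 1.13 and 1.08 on glucose. With scaling to the total count instead, the median log2 fold change of all 6181 tested genes shifted by 0.30 (willow 24 h + glucose 5 h against willow 24 h), by -0.43 (willow 24 h against glucose 48 h) and by -0.14 (willow 24 h + glucose 5 h against glucose 48 h). No symbol of the spore-formation genes looked up was found in the reference table, so the label of vegetative mycelium could not be checked against them. Of the markers of starving hyphae only pepA, an acid protease, was found, with 143 and 166 CPM after glucose addition, 1662 and 747 CPM on willow, and 9.78 and 17.1 CPM on glucose, and its relation to the 233 genes was not tested.

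The 233 genes together took 10.5% (95% Wilson interval 10.5% to 10.6%) and 9.29% (9.21% to 9.38%) of the reads in genes after glucose addition. On willow they took 1.24% (1.21% to 1.27%) and 1.23% (1.20% to 1.26%), and on glucose 8.97% (8.90% to 9.04%) and 7.92% (7.86% to 7.98%). The 2 most-read of them held a sizeable part of this. Without these 2, the share was 6.86% and 6.15% after glucose addition, 0.923% and 0.989% on willow, and 6.46% and 6.14% on glucose. Intervals cover counting error only.

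**Figure D1:**
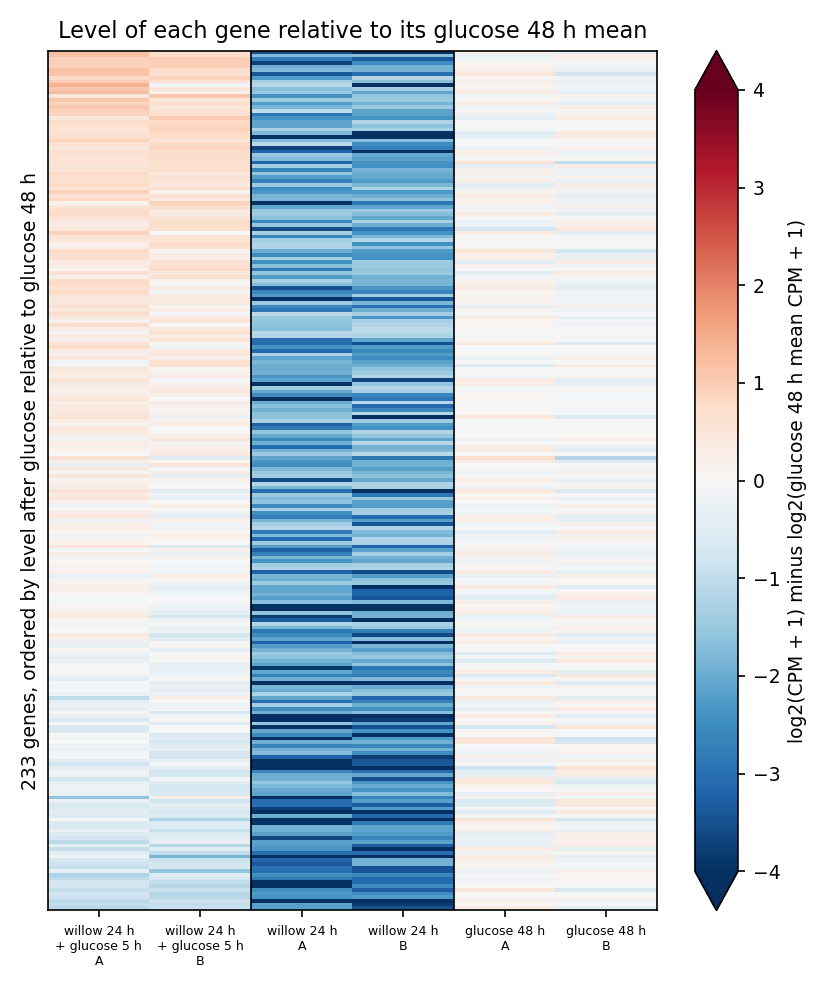
Level of each of the 233 genes (one line each) in the 6 libraries, as log2(CPM + 1) minus the log2 of its glucose 48 h mean CPM + 1. Genes run from the highest to the lowest mean after glucose addition relative to glucose 48 h; both willow 24 h columns are blue for every gene, as the rule requires, and the willow 24 h + glucose 5 h columns pass from red at the top to blue at the bottom.

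The heat map of all 233 genes shows a drop on willow of varying depth, which the rule bounds on one side only, and a level after glucose addition that it bounds on both sides. The willow mean was 22.5% of the glucose 48 h mean at the median (quartiles 14.4% and 28.8%), and at most 46.0%. It lay under 20% for 100 genes, under 10% for 29 and under 5% for 12. The lowest value among the 4 libraries with glucose was 2 to 3 times the higher willow value for 132 genes, 3 to 5 times for 64, 5 to 10 times for 27 and at least 10 times for 10. Most of the genes thus sat in the lower part of the range that the rule admits.

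In the edgeR quasi-likelihood fit, willow 24 h + glucose 5 h against willow 24 h called 220 of the 233 genes higher and 13 not, beside a background of 17.2% of all 6181 tested genes called higher and 20.5% called lower (adjusted p under 0.05). Willow 24 h against glucose 48 h called 219 lower and 14 not, beside a background of 13.5% called lower and 17.6% called higher. Since both comparisons are part of the rule, nothing is read from these counts. Median log2 fold changes were 2.25 (quartiles 1.76 and 2.75) after glucose addition against willow, where all tested genes had 0.04. They were -2.02 (quartiles -2.63 and -1.66) on willow against glucose, where all tested genes had -0.08. The medians are the same with An05g01440, the only gene of the 233 without a willow read, set at the limit of 3 reads in the shallower willow library.

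The role of one gene in starch use is known by its symbol. aglU (An04g06920) encodes an alpha-glucosidase, an enzyme that splits glucose units from maltose and starch fragments. It had 16925 and 12778 CPM after glucose addition, 2235 and 2093 CPM on willow, and 8901 and 6468 CPM on glucose. Both willow cultures lay far under the other 4, and both cultures with added glucose lay above both glucose cultures. The fitted log2 fold change was 2.68 (SE 0.45) after glucose addition against willow and -1.70 (SE 0.44) on willow against glucose. Per length, in TPM (the deposited RPKM rescaled to a common sum per library), aglU had a mean of 3140 TPM over the 4 libraries with glucose and held rank 3 among the 233 genes.

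Of 8 starch gene symbols looked up, 3 were found and 2 had enough reads for the test. glaA (An03g06550), the secreted glucoamylase, had 67152 and 51264 CPM after glucose addition, 20168 and 21203 CPM on willow, and 34326 and 44201 CPM on glucose. Its lowest value with glucose was 1.62 times the higher willow value, which kept it out of the set. The starch activator amyR (An04g06910), which lies next to aglU in the reference table, had 98.4 and 24.97 CPM after glucose addition, 28.0 and 13.1 CPM on willow, and 90.8 and 69.6 CPM on glucose. Across all genes tested, amyR was called higher after glucose addition than on willow (edgeR log2 fold change 1.50, SE 0.57, adjusted p 0.042) and lower on willow than on glucose (-1.78, SE 0.56, adjusted p 0.017). Its B culture after glucose addition was below willow culture A, so the groups overlapped and the rule left it out. The first call was lost without culture A after glucose addition (log2 fold change 0.20, adjusted p 0.867), both were lost without willow culture B (1.09, adjusted p 0.151, and -1.38, adjusted p 0.0654), and both were lost with DESeq2 (adjusted p 0.115 and 0.0503).

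niaD (An08g05610) encodes nitrate reductase, the first enzyme of nitrate assimilation. It had 3278 and 2395 CPM after glucose addition, 122 and 47.0 CPM on willow, and 1739 and 1099 CPM on glucose. The willow values rest on 61 and 18 reads. The willow mean was 5.96% of the glucose mean, and niaD was the gene closest to the upper limit on the glucose means, with a ratio of 1.999 between willow 24 h + glucose 5 h and glucose 48 h.

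In Aspergillus nidulans the nitrate reductase gene lies in a cluster with the genes for nitrite reductase and a nitrate transporter. The A. niger genes around niaD were therefore read in the order of the reference table, a stretch chosen after its values were seen; the table gives no symbol to any of them but niaD. An08g05640, 3 places from niaD, was the most abundant of the 233 genes both in reads and per length (4715 TPM). It had 18581 and 18451 CPM after glucose addition, 1260 and 612 CPM on willow, and 13374 and 10034 CPM on glucose. An08g05670, 6 places from niaD, had 1087 and 1196 CPM after glucose addition, 56.1 and 13.1 CPM on willow, and 722 and 303 CPM on glucose. It shows the same order of conditions but is not among the 233, because its 2 glucose means differ 2.23-fold.

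The pattern did not run through the whole stretch. An08g05580, on the other side of niaD, belonged to the 233 at a low level, with 44.9 and 45.4 CPM after glucose addition, 4.01 and 13.1 CPM on willow, and 62.9 and 68.4 CPM on glucose. The genes between niaD and An08g05670 other than An08g05640 had at most 7.48 CPM in any library. An08g05680, the next gene after An08g05670, ran the other way, with 11.2 and 11.4 CPM after glucose addition, 136 and 144 CPM on willow, and 5.59 and 2.44 CPM on glucose.

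**Figure D2:**
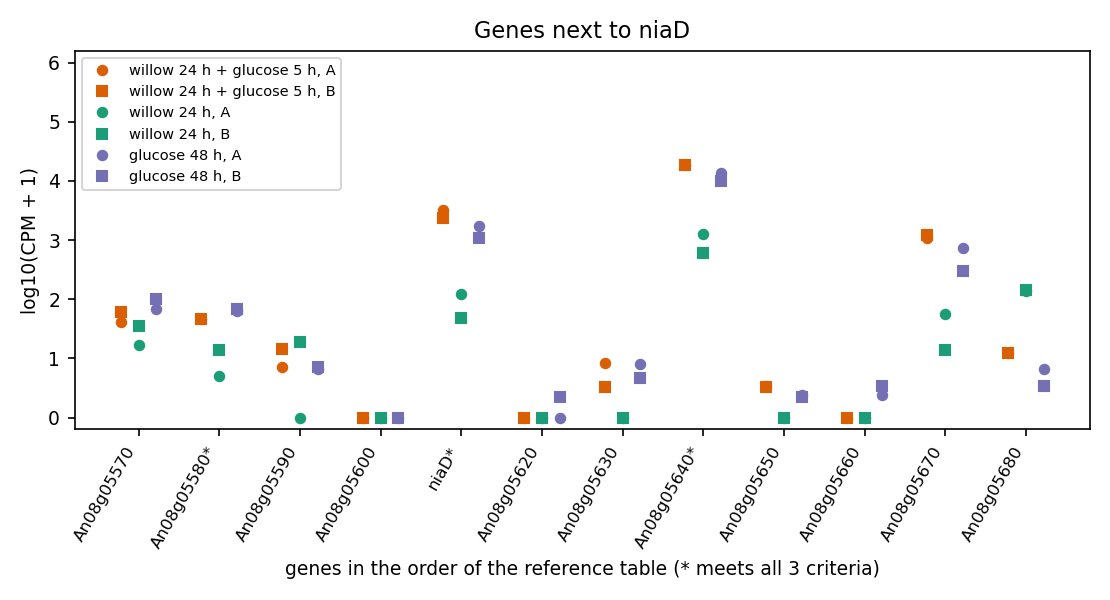
Genes on both sides of niaD in the order of the reference table, as log10(CPM + 1) in each library (circles A, squares B). The 3 genes marked with an asterisk belong to the 233; niaD, An08g05640 and An08g05670 are low on willow 24 h and high in both glucose conditions, while An08g05680 is highest on willow.

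Beyond niaD, other nitrogen and amino acid genes with a symbol were low on willow without coming back within 2-fold after glucose addition. gdhA (An04g00990), the NADP-dependent glutamate dehydrogenase that fixes ammonium, had 734 and 506 CPM after glucose addition, 244 and 78.4 CPM on willow, and 1287 and 1727 CPM on glucose. leu2A (An01g14130), an isopropylmalate dehydrogenase of leucine synthesis, had 117 and 70.4 CPM after glucose addition, 30.0 and 18.3 CPM on willow, and 263 and 173 CPM on glucose. Their means after glucose addition were 0.411 and 0.430 of those on glucose, under the limit of the rule. leu2B (An04g10130), another isopropylmalate dehydrogenase gene, had the opposite order, with 11.2 and 11.4 CPM after glucose addition, 118 and 188 CPM on willow, and 19.6 and 20.8 CPM on glucose.

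The 3 remaining genes with a symbol encode enzymes in or close to the citric acid cycle. pyc (An04g02090), pyruvate carboxylase, makes oxaloacetate from pyruvate; it had 1286 and 1346 CPM after glucose addition, 178 and 337 CPM on willow, and 764 and 787 CPM on glucose. citA (An09g06680), citrate synthase, had 511 and 325 CPM after glucose addition, 94.1 and 67.9 CPM on willow, and 429 and 695 CPM on glucose. icdA (An02g12430), NADP-dependent isocitrate dehydrogenase, had 383 and 336 CPM after glucose addition, 72.1 and 73.2 CPM on willow, and 441 and 467 CPM on glucose. Their willow means were 33.2%, 14.4% and 16.0% of the glucose means, in the order pyc, citA, icdA. The ratio of the mean after glucose addition to that on glucose was 1.70 for pyc, 0.743 for citA and 0.791 for icdA. None of the 3 was called different between these conditions. The rule limits this difference, and 228 of the 233 genes were not called, so nothing is read from it.

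Of the 10 symbols looked up for the citric acid cycle and storage sugars, 4 were found, and 2 of these belong to the 233. The other 2 are trehalose-phosphate synthase genes. tpsB (An07g08710) had 177 and 225 CPM after glucose addition, 517 and 614 CPM on willow, and 194 and 267 CPM on glucose. It was thus highest on willow, the reverse of citA and icdA.

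**Figure D3:**
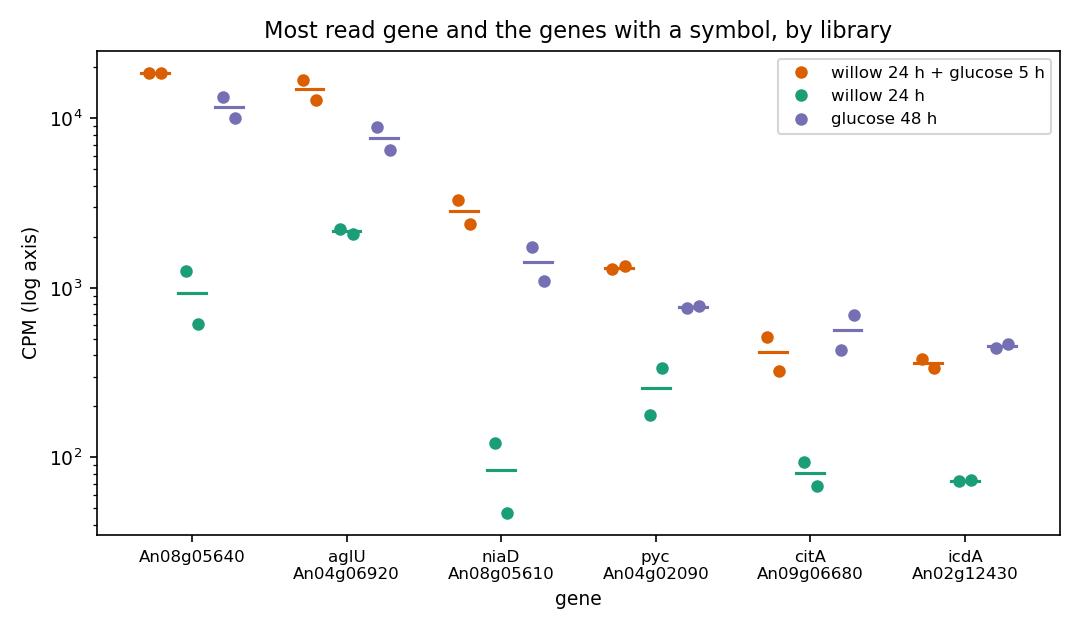
CPM on a log axis of the most read of the 233 genes, An08g05640, and of the 5 with a symbol, in willow 24 h + glucose 5 h, willow 24 h and glucose 48 h (points are cultures A and B, lines their mean). In all 6 genes both willow cultures lie under the other 4; after glucose addition An08g05640, aglU, niaD and pyc lie above glucose 48 h, icdA lies below it, and citA overlaps it.

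Of 12 glycolysis symbols looked up, 6 were found, all 6 were tested, and none of these 6 was among the 233; genes without a symbol could not be looked up. pfkA (6-phosphofructokinase), gpdA (glyceraldehyde-3-phosphate dehydrogenase) and pkiA (pyruvate kinase) were called higher after glucose addition than on willow across all genes tested, and gpdA and pkiA were called lower on willow than on glucose. gpdA (An16g01830) had 885 and 1119 CPM after glucose addition, 312 and 363 CPM on willow, and 602 and 1157 CPM on glucose. pkiA (An07g08990) had 639 and 577 CPM after glucose addition, 230 and 196 CPM on willow, and 453 and 408 CPM on glucose. In both genes the willow cultures were the lowest, but the lowest value with glucose was only 1.66 (gpdA) and 1.77 (pkiA) times the higher willow value. pfkA (An18g01670) differed from these, with 677 and 588 CPM after glucose addition, 116 and 152 CPM on willow, and 81.0 and 165 CPM on glucose, so that its glucose and willow cultures overlapped. The call of gpdA on willow against glucose (edgeR log2 fold change -1.26, SE 0.37, adjusted p 0.00973) was lost without glucose culture B (-0.75, adjusted p 0.167) and without willow culture A (-1.18, adjusted p 0.056). That of pkiA (-0.89, SE 0.33, adjusted p 0.0415) was lost when any of the 6 libraries was left out, with adjusted p of 0.0508 to 0.211, and with DESeq2 (adjusted p 0.0651).

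Fermentation was represented by adhA (An17g01530), an alcohol dehydrogenase gene, which met the 2 criteria on level and drop but not the one on the glucose means. It had 19803 and 19159 CPM after glucose addition, 1310 and 1189 CPM on willow, and 6135 and 6314 CPM on glucose. Its mean after glucose addition was 3.13 times that on glucose.

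None of the 7 tested regulators was among the 233. creA (An02g03830), the carbon catabolite repressor, had 46.1 and 34.1 CPM after glucose addition, 84.1 and 88.9 CPM on willow, and 29.3 and 41.5 CPM on glucose. xlnR (An15g05810), the activator of xylan-degrading enzymes, had 48.6 and 34.1 CPM after glucose addition, 260 and 272 CPM on willow, and 15.4 and 30.5 CPM on glucose. Both were highest on willow in every culture. In the other lists, 4 tested genes of secretion (srgA, sarA, bipA and tigA), 1 of the pentose phosphate pathway and 1 of glucose oxidation were all outside the 233. No symbol looked up for wall synthesis or for gluconeogenesis was found in the table.

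The other 228 of the 233 genes have no symbol and are given by identifier alone. Per length, those next in abundance to An08g05640 were An01g13060 with 3162 TPM over the 4 libraries with glucose, An18g04220 with 2353 TPM and An14g03080 with 1571 TPM. An01g13060 had 2396 and 3764 CPM after glucose addition, 178 and 395 CPM on willow, and 3861 and 4316 CPM on glucose, so both cultures with added glucose stayed below glucose 48 h. An18g04220 had 3359 and 3634 CPM after glucose addition, 365 and 625 CPM on willow, and 2573 and 2008 CPM on glucose. For An18g04220 both cultures with added glucose were above both glucose 48 h cultures, unlike for An01g13060.

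An14g03080 had 1690 and 1984 CPM after glucose addition, 106 and 172 CPM on willow, and 756 and 1775 CPM on glucose. Its glucose cultures were the least alike among these abundant genes. An18g04090 had nearly equal levels in both conditions with glucose, with 1639 and 1328 CPM after glucose addition, 96.1 and 102 CPM on willow, and 1614 and 1419 CPM on glucose. An01g00060 had 3582 and 2665 CPM after glucose addition, 563 and 591 CPM on willow, and 1952 and 1895 CPM on glucose. An16g07410, with 2437 and 1360 CPM after glucose addition, 519 and 609 CPM on willow, and 2022 and 1489 CPM on glucose, had the smallest drop among the 10 most-read of the 233.

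The largest factor over willow was that of An13g03970, whose lowest value with glucose was 55.8 times the higher willow value. It had 1022 and 894 CPM after glucose addition, 16.0 and 7.84 CPM on willow (8 and 3 reads), and 1004 and 1790 CPM on glucose. An13g01680 followed among the abundant genes with a factor of 34.7. It had 2122 and 2365 CPM after glucose addition, 32.0 and 10.5 CPM on willow (16 and 4 reads), and 1113 and 1637 CPM on glucose. Both genes were therefore almost without reads on willow at this depth, while they were well read in every library with glucose.

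An08g03560 had 299 and 279 CPM after glucose addition, 6.01 and 5.23 CPM on willow (3 and 2 reads), and 218 and 553 CPM on glucose. An18g00400 had 270 and 211 CPM after glucose addition, 4.01 and 13.1 CPM on willow, and 278 and 216 CPM on glucose. An08g06240 and An08g03200 had lowest values with glucose that were 13.2 and 11.4 times their higher willow value. For 3 of the 10 genes with the largest factors the willow cultures held only 1 to 3 reads together, so the factor is set by counting. These are An02g09530, An16g02770 and An03g04520, with 1, 1 and 3 willow reads. An02g09530 had 71.0 and 81.7 CPM after glucose addition and 168 and 132 CPM on glucose.

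Reads set how firmly the low end can be described. Of the 233 genes, 105 averaged under 100 CPM over the 4 libraries with glucose, 110 averaged 100 to 1000 CPM and 18 averaged at least 1000 CPM. On willow 61 genes had under 10 reads in both cultures together, and 10 genes had none in one culture only. An05g01440 had no willow read, 71.0 and 20.4 CPM after glucose addition, and 95 and 59.8 CPM on glucose. Against the limit of 3 reads in the shallower willow library, its lowest culture was at least 2.61-fold higher after glucose addition and at least 7.63-fold higher on glucose. In 43 genes at least 1 library with glucose held under 20 reads, and the lowest such count was 9.

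The level after glucose addition relative to glucose 48 h covered the full width that the rule allows, with ratios of the means between 0.501 and 1.999. The median ratio was 1.10; it was above 1 for 144 genes and below 1 for 89. Among the 2541 other genes with at least 20 CPM in the 4 libraries and means within 2-fold, the median was 0.991. Both cultures with added glucose lay above both glucose 48 h cultures for 83 of the 233 genes (35.6%) and below them for 35 (15.02%), and the 2 conditions overlapped for 115. Over the 2774 genes that meet the level and means criteria whatever their willow value, the background was 22.7% above and 22.9% below. This comparison is part of the rule, and the balance moves with the scaling: under total count scaling 59 of the 233 genes were above and 46 below, with a median ratio of 1.02.

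edgeR called 5 of the 233 genes different between willow 24 h + glucose 5 h and glucose 48 h, 3 higher and 2 lower, beside a background of 10.0% called higher and 8.87% called lower. At an unadjusted p under 0.05 there were 13 higher and 8 lower. A low count follows from the limit on the means and is not a finding. The 3 higher ones, named because the count is small, are An03g04280, An01g00610 and An07g10040. An07g10040 had 221 and 227 CPM after glucose addition, 16.0 and 10.5 CPM on willow, and 97.8 and 128 CPM on glucose. The 2 lower ones are An03g05200 and An12g02460. An12g02460 had 330 and 272 CPM after glucose addition, 114 and 120 CPM on willow, and 553 and 620 CPM on glucose.

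**Figure D4:**
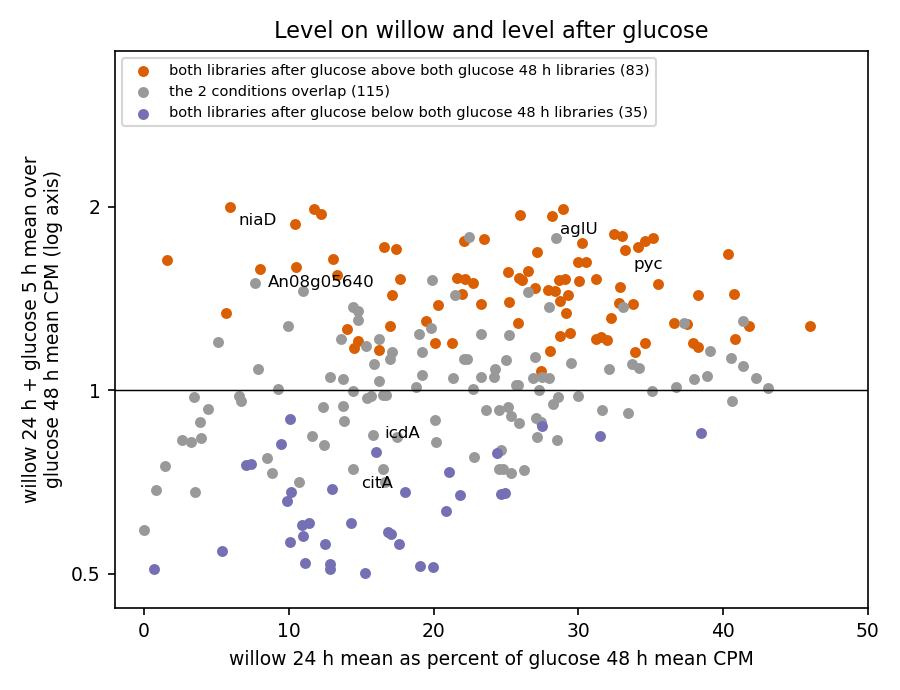
Each of the 233 genes by its willow 24 h mean as a percent of its glucose 48 h mean (x axis) and by the ratio of its willow 24 h + glucose 5 h mean to its glucose 48 h mean (y axis, log scale). Colours mark the 83 genes with both cultures after glucose above both glucose 48 h cultures, the 115 that overlap and the 35 below; the y range of 0.501 to 1.999 is set by the rule, and niaD lies at its upper edge.

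Genes at the edges of the rule were picked as the nearest to each limit, so they are close in the limited quantity by choice. In other values they could differ widely. The lowest value with glucose was 1099 CPM for niaD, just inside, and 206 CPM for An01g06560, just outside. At the minimum level, An02g02980 and An05g01440 lay just inside with a lowest value of 20.4 CPM, and An11g02090 and An02g12620 just outside with 19.9 CPM. At the factor over willow, An01g03790 and An01g11310 lay just inside with 2.003, and An14g00820 and An09g04120 just outside with 1.99 each. At the limit on the means, niaD (1.999) and An15g07810 (0.501) lay just inside, and An01g06560 (2.02) and An12g02450 (0.496) just outside. An12g02450 is the neighbour by identifier of An12g02460, which was inside, and its levels were of like size, with 399 and 334 CPM after glucose addition, 164 and 144 CPM on willow, and 613 and 863 CPM on glucose.

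The 233 are a minority of the genes that were low on willow. Judged against glucose 48 h alone, with the same level and factor, 638 genes were low on willow 24 h, and the 233 are 36.5% of these. After glucose addition the mean of 260 of the 638 stayed under 0.5 of the glucose 48 h mean, that of 34 exceeded 2 times it, and that of 344 lay within 2-fold. The remaining 111 within 2-fold failed a criterion in at least 1 culture with added glucose. In 182 of the 638, neither culture with added glucose reached 2 times the higher willow value. The median ratio of the mean after glucose addition to that on glucose was 0.626 over the 638 genes, of which the 260 are 40.8%. Among all 4051 genes with at least 20 CPM in both glucose 48 h libraries, whatever their willow value, the median was 0.916 and the share under 0.5 was 17.1%. The 638 were chosen as high on glucose 48 h, which is also the denominator of the ratio, so their ratios are lowered by the choice and are a description.

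**Figure D5:**
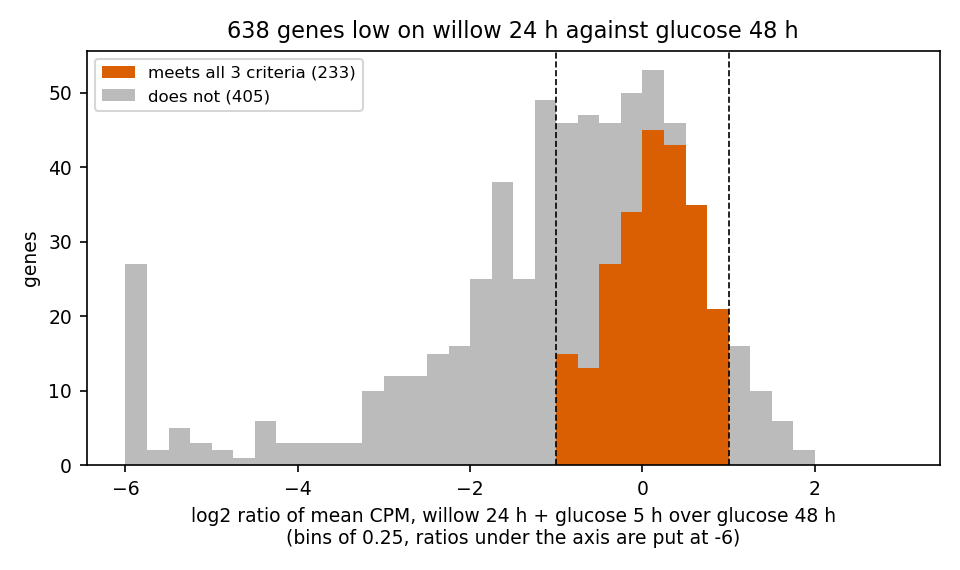
Histogram of the log2 ratio of mean CPM, willow 24 h + glucose 5 h over glucose 48 h, for 638 genes low on willow 24 h against glucose 48 h alone. Orange bars are the 233 genes that meet all 3 criteria, which lie between the dashed lines of the 2-fold limit; grey bars are the others, most of them on the left, and ratios under the axis, those of 0 included, are put in its first bin.

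The rule was also applied to the A cultures alone and the B cultures alone, and each choice was read in the other cultures. The genes so chosen are other sets, of which 215 (chosen in A) and 213 (chosen in B) are among the 233. Their shares are a description and no test of the 233. The A cultures alone chose 718 genes. In the B cultures 315 of these (43.9%) again had both glucose conditions at least 2 times above willow, and willow was the lowest in 577 (80.4%). The B cultures alone chose 504 genes, of which 284 (56.4%) had the factor of 2 in the A cultures and 439 (87.1%) had willow lowest. For comparison, among genes with at least 20 CPM in both glucose conditions and values within 2-fold, 17.8% of 2832 met the factor in the B cultures and 23.7% of 3033 in the A cultures. Of the chosen genes that also met these conditions in the other cultures, 48.4% of 488 met it in B and 62.9% of 375 in A. These 488 and 375 genes are themselves part of the comparison genes. Those of the 233 among the chosen genes meet the factor in both the A and the B cultures by the rule, so these shares are raised by the choice. In the comparison genes willow was the lowest in 53.7% of 2832 in the B cultures and 58.6% of 3033 in the A cultures. The shares of 80.4% and 87.1% are over all chosen genes, so their base differs from that of the comparison genes. With 1 willow library left out the rule has 1 willow value to meet and admits more genes: it kept 382 without willow library A, 232 of the 233 among them, and 408 without willow library B, with 222 of the 233.

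Cultures A and B of the 233 genes differed about as much as those of other genes of at least 20 CPM. The median fold between A and B was 1.26 after glucose addition, 1.38 on willow and 1.28 on glucose, against 1.28, 1.35 and 1.28 for the others. The rule used these same values, so this is a description. The 10 of the 233 genes without a read in only 1 willow culture were kept, while such genes were left out of the others.

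Of the properties that the rule did not use, transcript length as implied by the deposited counts and RPKM was shorter in the 233 genes. Its median was 1391 bp (quartiles 954 and 1726 bp), against 1644 bp (1065 and 2509 bp) in 3176 other genes of at least 20 CPM. No test was made, and longer genes reach the level criterion at a lower abundance per length.

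Position in the gene order was the other such property. Of the 466 places next to one of the 233 genes, 20 (4.29%) were held by another of them, while the 233 are 1.66% of the 14058 protein-coding genes in the table. These form 10 adjacent pairs, and no run of 3 or more occurred. The share of 1.66% is not matched for level. Only the 3411 genes with at least 20 CPM in the 4 libraries could be chosen, and 6.83% of these were. Of the 441 neighbours outside the set 251 were tested, against 6181 of all 15431 genes, so neighbours were more often expressed. The tested neighbours outside the set, 251 genes, had a median log2 fold change of 0.33 after glucose addition against willow, where all tested genes had 0.04, and of -0.34 on willow against glucose, where all had -0.08. The counting is not stated to use strand, so reads of overlapping neighbours cannot be told apart.

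The pairs differ in how alike their 2 genes are in level. An10g00820 and An10g00830 were both abundant. An10g00820 had 1796 and 1273 CPM after glucose addition, 196 and 152 CPM on willow, and 943 and 1408 CPM on glucose. An10g00830 had 533 and 572 CPM after glucose addition, 50.1 and 73.2 CPM on willow, and 432 and 447 CPM on glucose, the same order at a lower count. An01g00050 stands beside the abundant An01g00060, with 1256 and 842 CPM after glucose addition, 182 and 233 CPM on willow, and 666 and 513 CPM on glucose. For both genes of this pair the cultures with added glucose lay above those on glucose, with mean ratios of 1.78 and 1.62. In the pair An07g01950 and An07g01960 they did not match, with ratios of 0.576 and 0.978. An08g03550 had 53.6 and 24.97 CPM after glucose addition, 2.003 and 10.5 CPM on willow, and 32.1 and 48.9 CPM on glucose, next to An08g03560 with its deep drop.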

How the data were processed

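RNA of 6 libraries was depleted of ribosomal RNA and sequenced as paired ends on a SOLiD instrument, per the labels' protocols. The submitters' processing notes list HTSeq but no version; the aligner is not given in the sources used here. Each deposited table holds whole-number counts per gene and RPKM values that the authors computed, per the file headers. The 5 entries that name no gene held 96.9% to 98.5% of reads (multiply aligned 58.4% to 75.7%) and entered neither library sizes nor tests, so members of near-identical gene families are uncertain. From the counts, TMM CPM were computed and all 3 conditions were fitted together with edgeR 4.0.16 (R 4.3.3; glmQLFit, glmQLFTest, two-sided, filterByExpr minimum count 10, minimum total 15, Benjamini-Hochberg over 6181 genes, threshold 0.05, 3 residual degrees of freedom); 9250 genes were not tested. The procedure was tested on simulated counts. TPM were made from the deposited RPKM, whose implied lengths were whole within 0.01 bp for 100% of 21307 values with more than 20 counts. Symbols (129) and gene order come from the RefSeq table of assembly ASM285v2, which lists 14069 of the 14114 An identifiers, all 233 included; it differs from the build of the files, so no coordinates are given. Promoter and protein sequences were not used here. Genes named are those with a symbol, the 10 most-read, the 10 with the largest factor over willow, and those at the edges of the rule; the pairs, the niaD stretch and the 5 called after glucose addition were added after their values were seen. The genes and lists were chosen with earlier results of these data known. Alternatives were other scalings, filters, limits, DESeq2 1.42.0, the replicate block and leaving out each library.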

Additional observations from a re-analysis of the deposited data

How the results depend on the processing

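The number of genes that meet the rule, 233, was 150 with a minimum of 50 CPM, 102 with a factor of 3 over willow, 358 in TPM (206 of the 233 among them), 718 on the A cultures alone and 504 on the B cultures alone; leaving out 1 library gave 259 to 408. It was 191 with RLE factors, 237 with upper quartile factors and 337 with total count scaling (226 of the 233 among them), 289 with a minimum of 10 CPM, 308 without the limit on the glucose means and 170 with that limit at 1.5-fold. Of the 233, those called higher after glucose addition than on willow (220) numbered 156 to 232 over the alternatives, and those called lower on willow than on glucose (219) 156 to 233; the lowest of each came with a filter of 50 counts, which tests fewer genes. The 3 called higher after glucose addition than on glucose were 1 with DESeq2, 0 without a count filter, 0 with total count scaling and 7 with the replicate block, and 0 to 5 without 1 library. The 2 called lower were 0 with DESeq2, 0 without a count filter, 4 with only the 2 groups compared, 6 with total count scaling and 4 with the replicate block, and 0 to 4 without 1 library. The cause of these changes was not tested. The labels do not say whether cultures with the same letter were handled together. The deviations of such cultures correlated at 0.234 (willow 24 h + glucose 5 h and willow 24 h), -0.0256 (willow 24 h and glucose 48 h) and 0.16 (willow 24 h + glucose 5 h and glucose 48 h). With the replicate block 221 of the 233 were called in each of the other 2 comparisons. Of the 2248 other values of genes and medians under the alternatives, 2092 kept their call or moved by less than the spread between replicates, 99 moved by more, 48 lost a call, 9 gained one, and 0 called values changed sign. Depth limits the willow levels: 61 genes rest on under 10 willow reads. With 2 cultures a condition, p-values rest on a spread between cultures that was pooled over all 3 conditions and moderated across genes. They do not cover variation beyond these cultures.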
